A study of Mus musculus with 6 samples.

Results

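The 10 genes described here mark lineages of the dermal fibroblast, the cell that lays down the collagen-rich matrix of the skin. They were taken by name from the 23934 genes of the deposited table: Prdm1, Crabp1 and Corin for the papillary layer and the mesenchyme of the hair follicle, Dpp4, Pi16, Ly6a and Cd34 for progenitor and adventitial fibroblasts, Dlk1 for the reticular and fat-forming lineage, and En1 and Twist2 for dermal mesenchyme as such. Each name matched 1 row. All 10 passed the filter on low values, which 15935 genes passed in all.

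Sorted skin cells of mice at day 50 were compared between 3 control and 3 Zfp750 knockout libraries. Zfp750 is the mouse form of ZNF750, a regulator of epidermal differentiation. The knockouts are labelled ZNF750 fl/fl, Rosa26 -/- and Lrig1-CreER +/- (1 sample) or Lrig1-CreERT2 +/- (2 samples). The controls are labelled ZNF750 wt/fl with Rosa26 -/- (2 samples, 1 with Lrig1-CreERT2 +/- and 1 with Lrig1-CreER +/-) or ZNF750 wt/wt with Rosa26 +/- and Lrig1-CreERT2 +/- (1 sample). Both groups thus carry an inducible recombinase named for Lrig1, a gene of the upper hair follicle, and both had received 4-hydroxytamoxifen as pups, either from day 4 to day 7 of life or from day 5 to day 8. The mice are described as expressing tdTomato, and the labels do not state the sorting gate. Column names of the table give the group and match no numbered sample, so genotypes cannot be tied to columns, and the libraries are called control S2, S3, S4 and knockout S5, S6, S7 after them. Whether every library comes from its own mouse is not stated, and the p-values measure the spread between libraries, which may be technical in part.

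Dermal fibroblasts of the mouse divide early into an upper lineage, which forms the papillary dermis, the dermal papilla and the arrector muscle, and a lower lineage, which forms the reticular dermis and the fat beneath it. Prdm1 (Blimp1), a transcriptional repressor with zinc fingers, marks upper lineage progenitors of the developing dermis, and the surface protein Dlk1 marks the lower lineage. Fibroblasts around vessels and in the fascia carry Pi16 and the dipeptidyl peptidase Dpp4 (CD26) and are regarded as a reservoir for other fibroblasts.

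The libraries held 15310175 to 20705363 estimated reads. Zfp750 had normalized counts of 41.9, 3.75 and 314 in control libraries against 4.9, 1.82 and 7.16 in knockout libraries; control S3 lay inside the knockout range, so this gene gives no check of its label. All 12 pan-fibroblast genes were detected in every library. They took on average 26.0% of a control library and 7.01% of a knockout library, a difference carried by Col1a1, Col1a2 and Col3a1: the other 9 took 1.39 to 1.88% of controls and 1.25 to 1.74% of knockouts, which overlapped. Of the 15935 genes tested with limma, 1070 (6.71%) had an adjusted p under 0.05, of which 657 (4.12%) were higher and 413 (2.59%) lower in the knockout.

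The 5 members that passed this test are shown by the 250 bases before a RefSeq start site of each, so that these regions can be compared. Sequences are from GRCm38.p6 and run 5′ to 3′ on the strand of the gene. Which start sites these cells use was not tested, so a window need not lie next to the transcripts that changed. Capitals mark matches on either strand to 5 short motifs: CCNNNAGGC, the motif published for ZNF750, CANNTG, the E-box bound by Twist proteins, GAAAGT, a core bound by Prdm1, TGANTCA, the AP-1 motif, and TATAAA, the TATA box.
Prdm1, chr10:44458749-44458998, minus strand: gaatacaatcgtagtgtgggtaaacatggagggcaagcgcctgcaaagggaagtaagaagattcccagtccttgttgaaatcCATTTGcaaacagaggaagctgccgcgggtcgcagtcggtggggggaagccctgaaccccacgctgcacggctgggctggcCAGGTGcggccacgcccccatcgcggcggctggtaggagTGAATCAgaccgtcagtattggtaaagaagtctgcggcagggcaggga
Crabp1, chr9:54764498-54764747, plus strand: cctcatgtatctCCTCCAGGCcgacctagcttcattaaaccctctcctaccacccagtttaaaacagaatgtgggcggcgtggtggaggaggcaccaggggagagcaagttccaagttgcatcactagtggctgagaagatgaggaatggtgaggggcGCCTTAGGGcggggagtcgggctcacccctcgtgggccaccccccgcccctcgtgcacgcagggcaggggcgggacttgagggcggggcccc
Dlk1, chr12:109452573-109452822, plus strand: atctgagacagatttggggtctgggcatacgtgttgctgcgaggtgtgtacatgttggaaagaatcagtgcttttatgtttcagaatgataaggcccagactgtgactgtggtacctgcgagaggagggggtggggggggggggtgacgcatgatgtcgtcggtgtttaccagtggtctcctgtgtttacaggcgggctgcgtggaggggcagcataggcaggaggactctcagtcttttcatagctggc
Dpp4, chr2:62412232-62412481, minus strand: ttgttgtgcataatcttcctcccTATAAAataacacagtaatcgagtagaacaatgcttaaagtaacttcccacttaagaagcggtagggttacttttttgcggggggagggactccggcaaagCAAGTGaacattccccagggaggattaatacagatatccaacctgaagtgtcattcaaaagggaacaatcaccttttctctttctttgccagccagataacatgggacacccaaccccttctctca
Cd34, chr1:194938571-194938820, plus strand: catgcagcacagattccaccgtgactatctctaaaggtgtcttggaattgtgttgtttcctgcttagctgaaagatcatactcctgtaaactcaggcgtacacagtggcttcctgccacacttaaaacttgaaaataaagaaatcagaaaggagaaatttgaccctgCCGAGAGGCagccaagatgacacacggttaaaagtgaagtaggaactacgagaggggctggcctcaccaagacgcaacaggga
The motif published for ZNF750 lay in 2 of the 9 member windows, those of Crabp1, which rose, and Cd34, which fell, and in 19.8% of all 32851 windows. Crabp1 held it at bases -238 to -230 from the start site and, on the opposite strand, at -92 to -84. The E-box lay in 4 member windows (Prdm1, Dpp4, Corin and En1) and in 66.2% of all. AP-1 matched in Prdm1 at -48 to -42 and in En1, where it overlapped an E-box, and in 6.75% of all windows. Twist2 held the Prdm1 core at -145 to -140, as did 12.3% of all windows at any position. Dpp4 held the letters TATAAA at -227 to -222, far from the start site, as did 12.4% at any position. The windows of Dlk1 and Pi16 held none of the 5 motifs. These matches describe letters only.

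Of the 10 members, 3 rose in the knockout (Prdm1, Crabp1 and Dlk1, against 4.12% of all tested genes), 2 fell (Dpp4 and Cd34, against 2.59%), and 5 did not pass the test. The groups did not overlap for 6 members, against 28.8% of all tested genes: 3 were higher (15.7% of all) and 3, with Ly6a, were lower (13.1% of all). In an exact 2-sided permutation test of 3 libraries against 3 the smallest possible p is 0.1, which these 6 members reached. Fewer cells of a type and less RNA per cell cannot be told apart in bulk libraries.

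**Figure D1:**
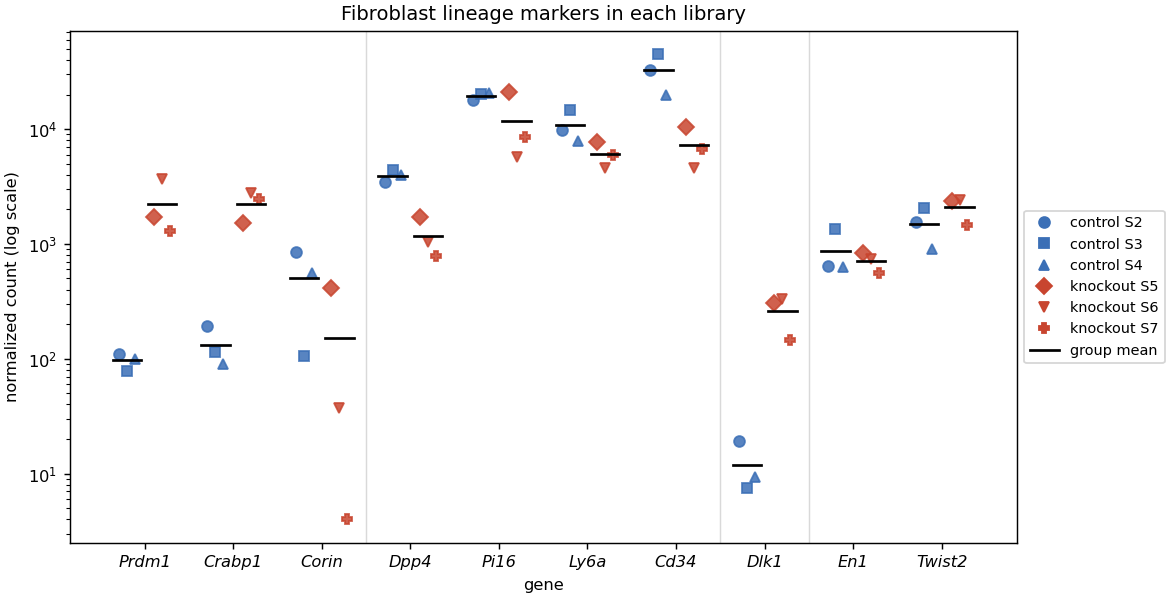
Normalized counts (log axis) of the 10 members in each library, with 1 symbol per library, controls in blue, knockouts in red and bars for group means. Prdm1, Crabp1 and Dlk1 are higher in all 3 knockout libraries, Dpp4, Ly6a and Cd34 are lower in all 3, and Corin spans 3.98 to 414 among the knockouts.

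Among the upper lineage markers, Prdm1 (ENSMUSG00000038151, chromosome 10) had normalized counts of 111, 78.7 and 100 across control S2, S3, S4 and of 1718, 3666 and 1293 across knockout S5, S6, S7. Even the lowest knockout library lay far above the highest control, and the knockouts spread 2.84-fold among themselves. Its mean rose 23.1-fold, from 96.44 ± 16.2 to 2225.6 ± 1265.3 (SD, n = 3 each), at a log2 fold change of 4.27 ± 0.37 (SE; limma adjusted p = 0.00159). All log2 fold changes here are of value + 9.15, a scale that understates the change of low genes.

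Crabp1 (ENSMUSG00000032291, chromosome 9), which binds retinoic acid inside the cell and marks papillary and dermal papilla fibroblasts, had normalized counts of 191, 114 and 90 across the controls and 1536, 2750 and 2448 across the knockouts. Every knockout was high, S5 least so. The mean rose 17.1-fold, from 131.4 ± 52.6 to 2244.5 ± 632 (SD, n = 3 each; log2 fold change 4.02 ± 0.32, limma adjusted p = 0.00111).

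Corin, a serine protease of the dermal papilla that acts on hair pigment, did not move with these 2 genes. Controls read 853, 105 and 558 and knockouts 414, 37.4 and 3.98. Control S3 was low and knockout S5 high, so the groups overlapped. The S7 value stands for 5 reads, with an exact 95% Poisson interval of 1.29 to 9.28 (counting error only). Its log2 fold change of -2.59 ± 1.26 had the largest SE of the 10 members and did not pass the test (limma adjusted p = 0.27).

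Dlk1 (ENSMUSG00000040856, chromosome 12), a transmembrane relative of the Notch ligands that restrains fat cell formation, was close to the detection limit in controls, with 19.1, 7.49 and 9.25 normalized counts from 15, 6 and 11 reads. Knockouts held 305, 329 and 147. The lowest of these lay above the control Poisson intervals, whose highest upper end was 31.4. Its mean rose 21.8-fold, from 11.94 ± 6.23 to 260.4 ± 98.8 (SD, n = 3 each; log2 fold change 3.64 ± 0.38, limma adjusted p = 0.00309). With a pseudocount of 1 in place of 9.15 the log2 fold change was 4.35, and with 4 times 9.15 it was 2.56.

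**Figure D2:**
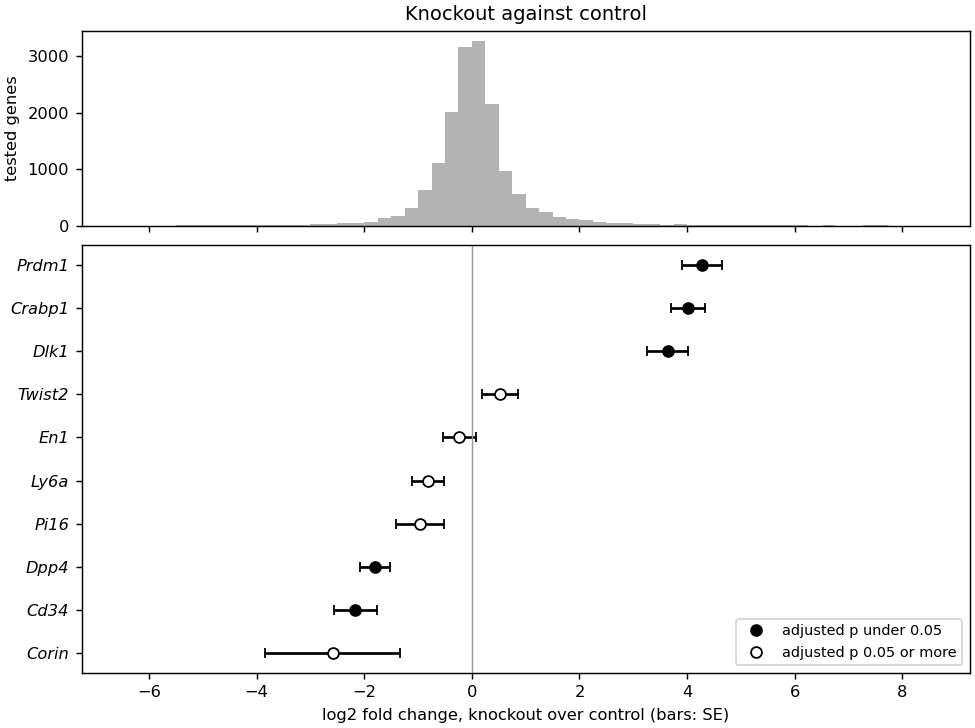
Lower panel: log2 fold change of each member, knockout over control, with its SE; filled points passed the limma test. Upper panel: log2 fold changes of all 15935 tested genes on the same axis. Prdm1, Crabp1 and Dlk1 lie between 3.64 and 4.27, and Dpp4 and Cd34 at -1.80 and -2.17.

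Among the progenitor markers, Dpp4 (ENSMUSG00000035000, chromosome 2), which trims dipeptides from hormones and chemokines, had normalized counts of 3431, 4378 and 3985 across controls and 1713, 1047 and 780 across knockouts. Every knockout lay below every control. The mean was 3.33-fold lower, 1180.3 ± 480 against 3931.3 ± 476 (SD, n = 3 each; log2 fold change -1.80 ± 0.28, limma adjusted p = 0.0127). Leaving out S2 or S6 ended the call, at -1.89 (adjusted p = 0.0506) and -1.75 (adjusted p = 0.0654).

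Cd34 (ENSMUSG00000016494, chromosome 1) is a sialomucin of many fibroblasts that also marks endothelium and the bulge of the hair follicle. Controls held 32573, 44632 and 19984 and knockouts 10369, 4555 and 6687, with no overlap and S5 the highest knockout. The mean was 4.5-fold lower, 7203.7 ± 2940.9 against 32396.3 ± 12324.7 (SD, n = 3 each; log2 fold change -2.17 ± 0.40, limma adjusted p = 0.0222). Without S2, S3, S6 or S7 the call ended, at adjusted p = 0.0942, 0.0531, 0.0908 and 0.0756. Summed endothelial markers made up 50.4 to 137 ppm of control libraries (parts per 1e6 of the summed normalized counts) and 83.9 to 272 ppm of knockout libraries. Without Tek, the most abundant, they made up 19.9 to 32.7 and 27.6 to 239 ppm. Of 6 tested endothelial markers 0 were called (median log2 fold change 1.08), and their part in the Cd34 result was not tested.

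Pi16, a secreted protein of the CAP superfamily, was even across controls at 17889, 20032 and 20727. Knockouts read 20845, 5704 and 8463: S5 matched the highest control while S6 and S7 lay below all controls. With all libraries it did not pass the test (-0.96 ± 0.45, limma adjusted p = 0.249), and without S5 it was called lower at -1.49 (adjusted p = 0.0299). Ly6a (Sca-1), a surface protein of many progenitors on chromosome 15, read 9856, 14646 and 7810 in controls against 7713, 4545 and 5990. Its groups did not overlap, though control S4 and knockout S5 nearly met, and it did not pass (-0.81 ± 0.30, adjusted p = 0.16). Similar Ly6 genes lie beside it and may share its reads, so this value is uncertain.

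Knockout S5 was the highest of the knockouts for all 4 progenitor markers, for Corin and for En1, and the lowest for Crabp1. Prdm1, Dlk1, Crabp1 and Twist2 peaked in S6.

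Neither mesenchymal transcription factor passed the test. Twist2 (Dermo1), a basic helix-loop-helix factor of dermal precursors, read 1538, 2061 and 909 in controls against 2382, 2425 and 1469 (0.52 ± 0.33, limma adjusted p = 0.395). En1 (Engrailed 1), a homeobox factor that marks a scar-forming lineage of dorsal skin, read 647, 1349 and 631 against 828, 734 and 563 (-0.23 ± 0.31, adjusted p = 0.713). Groups overlapped for both. The sign of En1 turned with library scaling, to 0.09 when libraries were set to a common total.

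Per kilobase of exon (GENCODE M21, all exons of a gene merged), the order of mean levels in controls was Ly6a, Cd34, Pi16, Dpp4, Twist2, En1, Crabp1, Corin, Prdm1, Dlk1, from 8938.2 down to 2.11 normalized counts per kilobase. In knockouts it was Ly6a, Crabp1, Pi16, Cd34, Twist2, Prdm1, En1, Dpp4, Dlk1, Corin, from 5048.0 down to 28.1. The Crabp1 level per kilobase went from 164 to 2798.6, the second place among knockouts, and that of Prdm1 from 17.3 to 399. Dpp4 went from 622 to 187. Neighbours overlapped in range from Crabp1 down to Dpp4 and for Dlk1 with Corin in knockouts, and for Cd34 with Pi16, from Dpp4 to En1 and from Crabp1 to Prdm1 in controls.

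Lists of related genes place the members among other markers. They were chosen with earlier results known, and the median log2 fold change over all tested genes was 0.01. List counts here and below stand beside shares over all 15935 tested genes of 4.12% called higher and 2.59% called lower. Of these 15935 genes, 8153 had positive log2 fold changes. Of 13 tested genes that accompany Pi16 and Dpp4 in progenitor fibroblasts, 5 fell and 0 rose, and all 13 had negative log2 fold changes, with a median of -1.55. Leaving out S2 or S6 left 3 called. Sema3c, which encodes a guidance cue, read 6210, 10924 and 7003 in controls against 1910, 752 and 1018 (-2.77 ± 0.36, limma adjusted p = 0.007). The transcription factor gene Creb5 (-1.79 ± 0.22, adjusted p = 0.00546) and Igfbp6, for a binder of insulin-like growth factors (-1.68 ± 0.21, adjusted p = 0.00601), also fell. Pcolce2, for an enhancer of collagen processing (-2.10, adjusted p = 0.0175), and the complement regulator gene Cd55 (-1.44, adjusted p = 0.0343) complete the 5 and were named after their values were seen. Pcolce2 was not called without S2, S6 or S7, where adjusted p-values reached 0.0799. Cd55 was not called without S2, S3, S6 or S7, where they reached 0.125. Mfap5, at 3656, 2476 and 3965 against 4927, 1637 and 2617, was highest in S5, as Pi16 was.

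**Figure D3:**
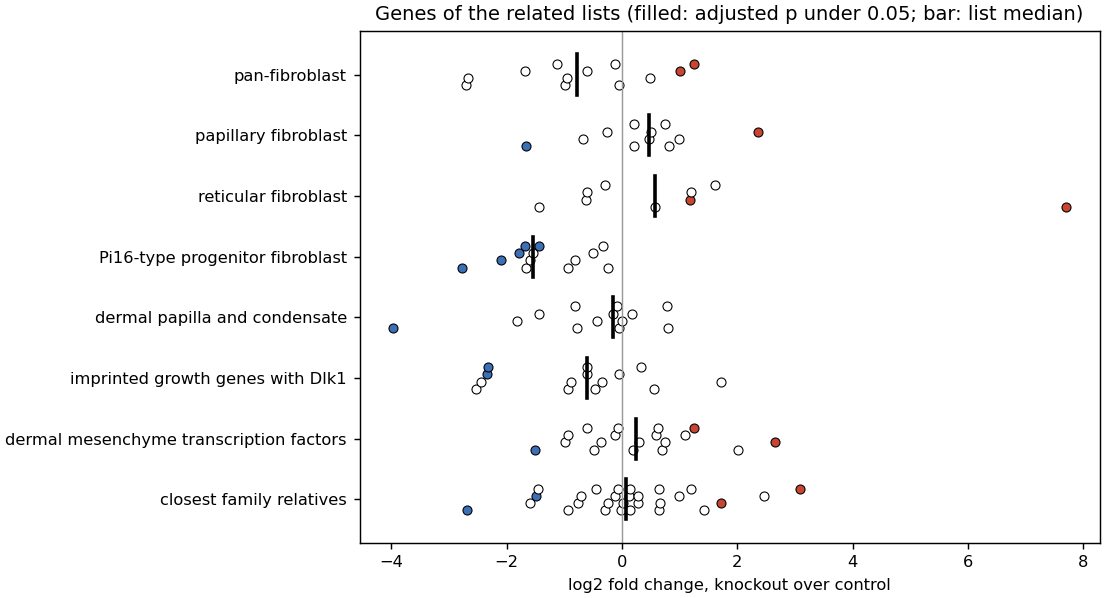
Log2 fold changes, knockout over control, of the tested genes in 8 related lists; filled points had an adjusted p under 0.05 (red higher, blue lower) and bars mark list medians. All 13 points of the Pi16-type progenitor list lie below 0, with a median of -1.55.

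Of 11 tested papillary genes, 1 rose and 1 fell (median 0.47). The transmembrane collagen gene Col23a1 read 780, 590 and 501 in controls against 1923, 4919 and 3341 (2.35 ± 0.34, limma adjusted p = 0.00942). Col18a1, a basement membrane collagen gene, was lower (-1.66 ± 0.29, adjusted p = 0.0186), which did not hold without S2, S6 or S7 (up to 0.0845). Under a common library total 4 papillary genes rose and 1 fell. Lrig1, itself on the papillary list, read 1848, 585 and 2082 against 1844, 1577 and 2089.

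Of 13 tested genes of the dermal papilla and condensate, 1 fell and 0 rose (median -0.16). Hhip, for a membrane antagonist of hedgehog ligands, read 1472, 953 and 1826 in controls against 143, 93.9 and 34.2 (-3.97 ± 0.46, limma adjusted p = 0.00468). Sox2, a papilla transcription factor, did not pass the filter, at 7.62, 1.25 and 0.841 against 10.8, 7.29 and 9.55. Nor did Rspo2, which went the other way, at 24.1, 21.2 and 9.25 against 0, 3.65 and 0 without overlap. In a fit without the filter, 2 genes of this list were called lower and 0 higher.

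Of 9 tested reticular genes, 2 rose and 0 fell (median 0.58). Tnn, for the matrix glycoprotein tenascin N, read 100, 21.2 and 21 in controls against 7914, 14411 and 7970 (7.70 ± 0.51, limma adjusted p = 0.000591). Fmo1, a flavin monooxygenase gene, rose by 1.17 ± 0.22 (adjusted p = 0.0243), which did not hold without S2, S3, S6 or S7 (up to 0.102).

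Of the 12 pan-fibroblast genes, 2 rose and 0 fell (median -0.78). The PDGF receptor gene Pdgfra read 10932, 11482 and 10886 in controls against 29489, 23877 and 25506 (1.24 ± 0.21, limma adjusted p = 0.0165). Its sister Pdgfrb rose by 1.00 ± 0.22 (adjusted p = 0.0384). Pdgfra was not called without S2, S6 or S7 (0.0981, 0.0590 and 0.0601), nor Pdgfrb without any 1 library (0.0531 to 0.134). The 3 collagen genes of the list did not pass, Col1a1 at -2.67 ± 1.21 (adjusted p = 0.237). Under a common library total, 2 genes of this list rose and 2 fell. With every library shifted to the same median of this list, Prdm1, Crabp1 and Dlk1 were at 4.40, 4.15 and 3.77 and Dpp4 and Cd34 at -1.67 and -2.04, all 5 still called.

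Of 18 tested transcription factor genes of dermal mesenchyme, the group to which Twist2 and En1 belong by function, 2 rose and 1 fell (median 0.25). The nuclear receptor gene Nr2f1 (COUP-TFI) read 29.2, 27.5 and 41.2 in controls against 227, 326 and 212 (2.65 ± 0.26, limma adjusted p = 0.00244). Nr2f2 (COUP-TFII) read 272, 243 and 279 against 578, 682 and 674 (1.25 ± 0.16, adjusted p = 0.00595). The zinc finger gene Osr2 was lower (-1.51 ± 0.30, adjusted p = 0.0289), which held only without S4 among the fits that left out 1 library (up to 0.116). Twist1, the near relative of Twist2, read 2413, 3540 and 1432 against 2368, 2544 and 1750 (adjusted p = 0.921).

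Dlk1 lies in an imprinted domain of chromosome 12, where Dlk1, Rtl1 and Dio3 are transcribed from the paternal copy and the noncoding RNAs Meg3, Rian and Mirg from the maternal copy. Dlk1 rose, whereas Meg3 and Rian fell. Meg3 read 9903, 9293 and 8023 in controls against 2815, 2796 and 705 (-2.34 ± 0.50, limma adjusted p = 0.0371). Rian read 14086, 11360 and 7183 against 3713, 2548 and 959 (-2.32 ± 0.49, adjusted p = 0.0354). Groups did not overlap for either, and S7 was the lowest library for both as it was the lowest knockout for Dlk1. Mirg (-2.54 ± 0.62, adjusted p = 0.0538) and Rtl1 (-2.45 ± 0.71, adjusted p = 0.0904) did not pass. An antisense RNA overlaps Rtl1, and with no strand setting given its reads are uncertain. Meg3 was not called without S2, S3, S4 or S6 (0.134, 0.0933, 0.0513 and 0.0726), nor Rian without S2, S3, S6 or S7 (0.135, 0.0923, 0.103 and 0.0502). Of 14 tested imprinted genes, these 2 fell and 0 rose (median -0.60). Igf2, a fetal growth factor gene, read 508, 593 and 224 against 874, 2257 and 1251 and did not pass (1.71 ± 0.44, adjusted p = 0.0658). Without 1 library it was never called (0.0527 to 0.183). These results depended on library scaling. Under a common library total Igf2 was called higher (limma adjusted p = 0.0155) and Mirg lower (0.0419), but not Rtl1 (0.0804). With libraries shifted to the same pan-fibroblast median, Igf2 was called higher (0.0174), and Mirg and Rtl1 lower (0.0172 and 0.0392).

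**Figure D4:**
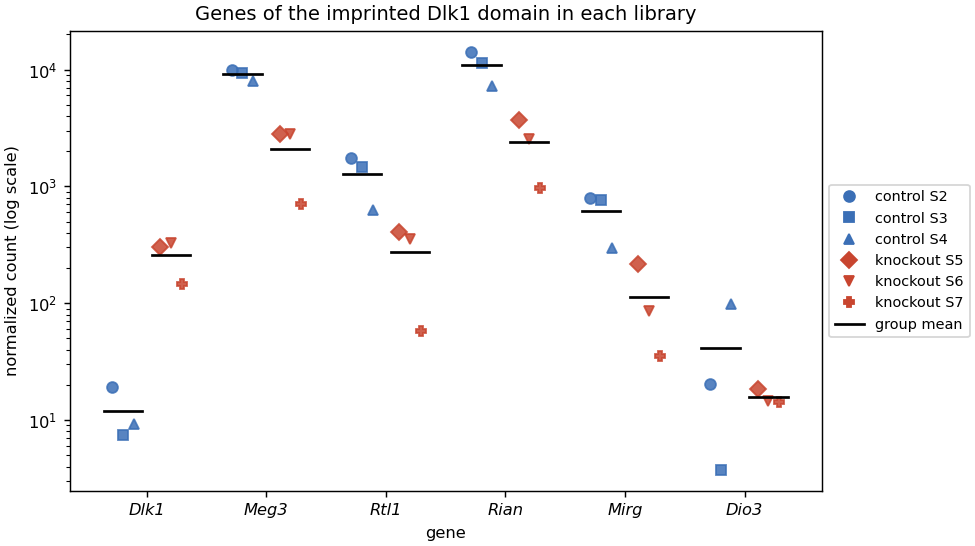
Normalized counts (log axis) of 6 genes of the imprinted Dlk1 domain in each library, controls in blue and knockouts in red, with bars for group means. Dlk1 is higher in all 3 knockout libraries, Meg3, Rtl1, Rian and Mirg are lower in all 3, and Dio3 overlaps.

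Among the closest family relatives of the members, 2 of 28 tested genes rose and 2 fell (median 0.06). Prdm11 rose by 1.72 ± 0.35 (limma adjusted p = 0.0303), which held only without S4 among the fits that left out 1 library (up to 0.110). The other tested genes named Prdm did not pass. Dpp10, a relative of Dpp4 that partners potassium channels, read 3.81, 0 and 0 in controls against 52, 139 and 64.4 (adjusted p = 0.0075). Dpp6, named after its values were seen, was lower (-1.49 ± 0.33, adjusted p = 0.0411), which held only without S4 (up to 0.153). Fap, the fibroblast activation protein gene and another relative of Dpp4, read 1526, 859 and 1837 against 1404, 585 and 597 and did not pass (adjusted p = 0.307). Pi15, a CAP superfamily relative of Pi16, read 2670, 4384 and 3068 against 393, 505 and 648 (-2.69 ± 0.25, adjusted p = 0.00207), with S5 the lowest library. Crabp2, the sister of Crabp1, read 40.7, 18.7 and 40.4 against 93.2, 62.9 and 62.1 and did not pass (0.98 ± 0.33, adjusted p = 0.133).

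Over the 6 libraries, the genes whose centred log2 profile lay nearest to that of Prdm1, by root mean square distance among 10509 genes with a mean of at least 5 ppm, were Drd1, Tph1, Serpina10, Ifitm1 and Gcnt4, at distances of 0.241, 0.284, 0.304, 0.361 and 0.395 on the log2 scale. All 5 were highest in S6, as Prdm1 was. Drd1 and Tph1 were low in controls, and their means rose 90.2-fold and 77.3-fold, against 23.1-fold for Prdm1. With a pseudocount of 1 their log2 fold changes were 5.99 and 5.70, against 4.38 for Prdm1. With a pseudocount 4 times larger than the main one they were 2.29 and 2.38, against 3.95 for Prdm1. The nearness of Drd1 and Tph1 thus depends on the pseudocount, and the ranking under other pseudocounts was not tested. Ifitm1, an interferon-induced membrane protein gene, read 100, 72.4 and 79.1 in controls against 1026, 1909 and 1353, and the dopamine receptor gene Drd1 read 3.81, 0 and 1.68 against 107, 281 and 108. Among the members, Dlk1 (0.45) and Crabp1 (0.5) were nearest to Prdm1, and Dpp4 and Cd34 were nearest to each other (0.469).

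Several members are also transcribed by other skin cells. Prdm1 is known from sebaceous gland cells, differentiating keratinocytes, plasma cells and T cells. Differentiated keratinocyte markers summed to 7.34 to 83.7 ppm in controls and 11.4 to 46.8 ppm in knockouts (0 of 5 rose and 1 fell, median log2 fold change -0.10). T cell markers summed to 0.724 to 23.1 and 8.28 to 65 ppm, with 0 of 7 called, all 7 log2 fold changes positive and a median of 1.82. Plasma cell markers summed to 206 to 573 and 256 to 444 ppm, nearly all from Xbp1, Sdc1 and Irf4, which other cells also express, and 0 of 3 tested were called. The other 3 did not pass the filter: Jchain read 0, 1.25 and 2.52 against 0.981, 32.8 and 157, Mzb1 read 0.00814, 0 and 0 against 2.94, 5.47 and 28.6 without overlap, and Tnfrsf17 was at 0 in all libraries but S7. The part of these 3 cell types in the Prdm1 result was not tested. Sebocyte markers summed to 321 to 370 ppm in controls and 447 to 1029 ppm in knockouts without overlap, 2 of 7 rose, and their part in the Prdm1 result was not tested. Mast cell markers summed to 1.11 to 27.4 and 62 to 248 ppm, with S6 highest; 3 of 6 rose, Tpsab1 and Fcer1a were at 0 in every control, and their part in the results was not tested. General leukocyte markers summed to 3.77 to 85.2 and 37.5 to 317 ppm (0 of 6 called, median log2 fold change 1.98) and macrophage markers to 57.1 to 131 and 93.2 to 852 ppm (0 of 7 called, median 2.2).

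**Figure D5:**
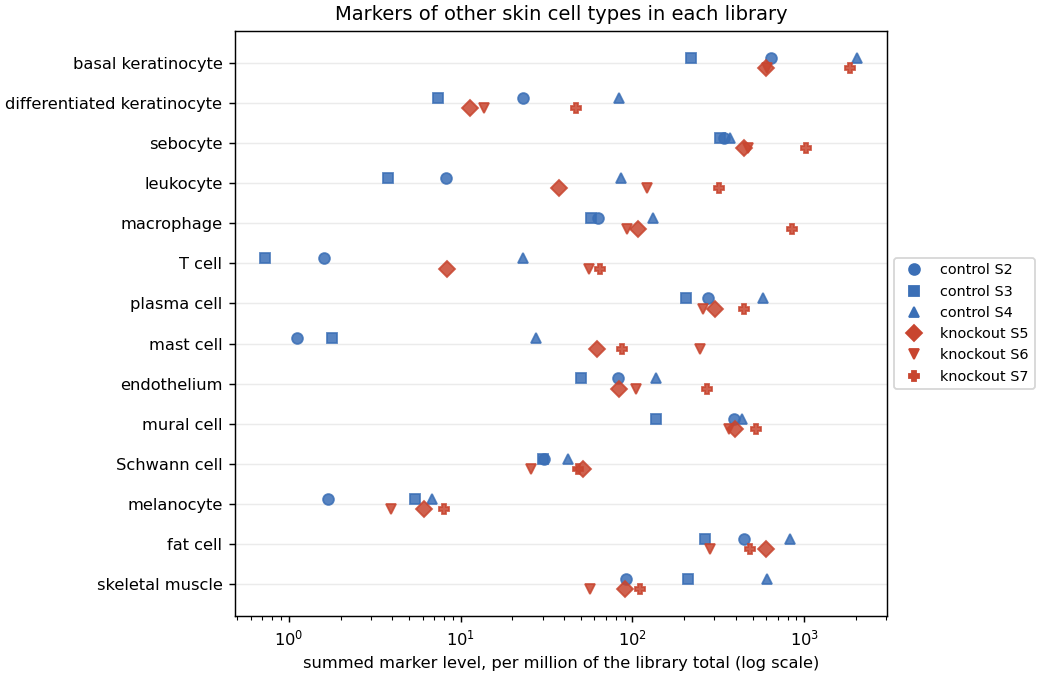
Summed level of the markers of 14 other skin cell types in each library, in ppm of the library total (log axis), controls in blue and knockouts in red. Mast cell sums are 1.11 to 27.4 ppm in controls and 62 to 248 ppm in knockouts, while sums for keratinocytes and T cells overlap between groups; the fat cell sums are nearly all Lpl.

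Fat cell markers, which touch on Dlk1 as a gene of fat cell precursors, summed to 263 to 829 and 281 to 596 ppm, nearly all of it Lpl, which other cells also express. Without Lpl the sums were 2.08 to 5.02 ppm in controls and 10.1 to 164 ppm in knockouts, without overlap and with S7 highest. Of 4 tested fat cell markers 0 were called, at a median log2 fold change of 2.41. Cidec, a lipid droplet gene, read 2.54, 2.5 and 0.841 against 17.7, 213 and 990 (4.03 ± 1.13, limma adjusted p = 0.0824). Fabp4, a fatty acid carrier gene, read 68.6, 71.2 and 18.5 against 100, 228 and 518 (adjusted p = 0.0985). The adipokine gene Adipoq, under the filter, read 0, 1.25 and 2.52 against 6.86, 111 and 519. All 3 were higher in every knockout than in any control and highest in S7, and their part in the Dlk1 result was not tested. Basal keratinocyte markers summed to 219 to 2027.9 and 599 to 1834.3 ppm (0 of 8), mural cell markers to 137 to 434 and 365 to 522 ppm (0 of 6), Schwann cell markers to 30.1 to 41.9 and 25.8 to 51.2 ppm (0 of 5) and melanocyte markers to 1.7 to 6.81 and 3.95 to 8.01 ppm (0 of 3). Skeletal muscle markers summed to 91.7 to 610 and 56.9 to 110 ppm, and 1 of 5 fell. These 5 sums overlapped between groups, but a sum can rest on 1 abundant gene. Without Mbp the Schwann cell sums were 8.16 to 14.7 and 8.8 to 26.8 ppm. Of these 5 genes, 3 were higher in every knockout than in any control and 0 were called. Without Acta1 the skeletal muscle sums were 77.8 to 345 ppm in controls and 42.9 to 60.9 ppm in knockouts, without overlap. Of those 5 genes, 4 were lower in every knockout than in any control (median log2 fold change -1.75).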

How the data were processed

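RNA of sorted cells was extracted with a PureLink kit and made into NEBNext Ultra II libraries, per the labels' protocols. The authors deposited normalized counts, a signal per gene and library, per the file headers; from the values these are estimated reads over 1 factor per library, and 78.7% to 81.2% of nonzero values up to 1000 reads came out whole within 0.05, so no count model was run. TopHat2 2.1.0 and Partek 9.0.20.0202 appear in the submitters' processing notes. Genome build, annotation and strand setting: not given in the sources used here.

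Groups were compared with limma 3.58.1 in R 4.3.3 (empirical Bayes, intensity trend, 2-sided) after adding 9.15 (0.5 ppm of the mean library total) and taking log2. Genes needed 1 ppm in at least 3 libraries. Benjamini-Hochberg adjustment ran over all 15935 genes, with calls under 0.05. The fit was run on simulated counts with the same dispersion for every gene, equal library scaling and no differences in cell content. These libraries do not meet those settings, so that run does not show how the fit performs here. Fits without a library kept the same genes.

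Members and lists were chosen with earlier results of these data known. Named were the members, Zfp750, up to 3 called genes per list by adjusted p, and the 5 genes nearest to Prdm1, leaving out predicted genes and pseudogenes; all other genes named were chosen after their values were seen. RefSeq promoter windows matched 9 of 10 members.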

Additional observations from a re-analysis of the deposited data

How the results depend on the processing

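Prdm1, Crabp1 and Dlk1 were called higher in every fit run, with log2 fold changes of 3.84 to 4.59, 3.80 to 4.31 and 3.43 to 3.99 without 1 library. In those fits 3 to 6 members were called (3 without S2 or S6), 337 to 1285 genes in all, and 10 to 24 list genes, against 21 of 115 with all libraries. En1, never called, ranged from -0.41 to 0.13 without 1 library and changed sign to 0.09 with a common library total and to 0.07 with libraries scaled to the pan-fibroblast list without its collagens; the cause was not tested. The last scaling, chosen after seeing the data, called 33 list genes and also Corin (-2.29 ± 0.70, limma adjusted p = 0.0339). Without scaling Corin was at -2.59 ± 1.26, so this call came with a smaller SE and not with a larger change. In the same fit the SEs of Cd34 and Pi16 also fell, to 0.35 and 0.37. Those of the other members rose, as for Prdm1 from 0.37 to 0.48. This scaling lowered control S3 by 0.833 on the log2 scale, the largest shift of any library. Why the SEs moved was not tested, and the Corin call is uncertain. A common library total moved the share of higher genes among calls from 61.4% to 78.9% and the median log2 fold change of all genes from 0.014 to 0.313; the pan-fibroblast scalings moved that median to 0.143 and, without collagens, 0.309. Without the intensity trend 0 imprinted genes were called, at adjusted p = 0.0569 for Meg3 and 0.0548 for Rian. Depth limits Dlk1 in controls and Corin in S7, at 15 reads or fewer.

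A replicate block on the number that begins the column names, chosen after seeing the data, could use S2 with S6 and S3 with S7, leaving 1 residual degree of freedom. Deviations of same-numbered libraries correlated at 0.25 and -0.22. What the number stands for is not stated, and 2 pairs cannot decide whether such libraries are paired. The block called 1555 genes, 8 members (3 higher, 5 lower) and 35 list genes. This fit left out S4 and S5. Without S5 alone Pi16 was already called lower (limma adjusted p = 0.0299). The effect of the block thus cannot be told apart from that of the libraries left out.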

Other observations

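Ratios of genes within a library do not depend on library scaling; those given here were chosen after the values were seen. Per 1000 units of Pdgfra, which itself rose in the knockout, Prdm1 stood at 10.1, 6.85 and 9.19 in controls against 58.3, 154 and 50.7 in knockouts. Crabp1 stood at 17.4, 9.9 and 8.27 against 52.1, 115 and 96, and Dlk1 at 1.74, 0.653 and 0.85 against 10.3, 13.8 and 5.77. The groups were apart for all 3. Cd34 stood at 2979.7, 3887.1 and 1835.7 against 352, 191 and 262 and Dpp4 at 314, 381 and 366 against 58.1, 43.9 and 30.6. En1, whose groups overlapped as deposited, stood at 59.2, 117 and 57.9 against 28.1, 30.7 and 22.1, without overlap. Twist2 stood at 141, 179 and 83.5 against 80.8, 102 and 57.6, with overlap. The Pdgfra mean was 2.37-fold higher in the knockout, so a gene that did not change stands lower per unit of it. These ratios therefore do not show that En1 fell.

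Per 1000 units of Meg3, its neighbour in the imprinted domain, Dlk1 stood at 1.92, 0.806 and 1.15 in controls against 108, 118 and 209. Knockout S7, with the lowest Dlk1 of the knockouts, had the highest such ratio. Per 1000 units of Twist2, Cd34 was close to even across controls, at 21176.4, 21660.2 and 21977.1, and stood at 4353.5, 1878.7 and 4553.5 in knockouts.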
